A study of Mus musculus with 46 samples.

Results

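The inflammatory CC chemokines described here are the 10 genes Ccl2, Ccl3, Ccl4, Ccl5, Ccl6, Ccl7, Ccl8, Ccl9, Ccl11 and Ccl12. They were chosen by name from the count table, with earlier results of these data known. They are 10 of the 46011 complete gene entries in the table, and all 10 had counts above 0 in every tumor. RNA was sequenced from 46 AB1-HA tumors, a murine mesothelioma line that carries influenza haemagglutinin, grown under the skin on both flanks of male BALB/c mice aged 8 to 10 weeks. Every mouse received cyclophosphamide (CY, 200 mg/kg), an alkylating chemotherapy, on day 10 after inoculation. A single tumor per mouse was removed on day 9 (Day-1), day 13 (Day+3) or day 17 (Day+7), and the tumor left in place gave the read-out. Tumors came from complete responders (CR, whose remaining tumor cleared) or from progressors (PR, called partial responders in the sample labels). There were 13 CR and 13 PR tumors at Day-1, before any CY, and 5 CR and 5 PR tumors at each of Day+3 and Day+7. Each tumor came from a different mouse. All tumors share 1 cell line, no tumor without CY at the later days is among those analysed here, and time after CY goes with tumor age and with sequencing depth, so these cannot be told apart.

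Chemokines are small secreted proteins that guide leukocytes along a gradient, and those of the CC class carry a pair of adjacent cysteines and act through receptors named CCR. The inflammatory members are induced in macrophages, T cells, fibroblasts and endothelium by cytokines and by tissue damage. In mouse tumors Ccl2, Ccl7 and Ccl12 are ligands of Ccr2 and draw monocytes, Ccl3, Ccl4 and Ccl5 draw T cells and macrophages, Ccl6 and Ccl9 act on Ccr1, Ccl11 (eotaxin) acts on Ccr3 of eosinophils, and mouse Ccl8 acts on Ccr8.

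All 10 genes lie on chromosome 11 (GRCm38, GENCODE M21) in a pair of clusters. Ccl2 (82035571 to 82037453), Ccl7, Ccl11, Ccl12 and Ccl8 (ending at 82116799) form the first, all on the plus strand. Ccl5 (83525778 to 83530518), Ccl9, Ccl6 and Ccl3 on the minus strand and Ccl4 on the plus strand (ending at 83664683) form the second. The 250 bases before the transcription start were held by RefSeq's promoter table (GRCm38.p6) for 5 of the 10 genes. The windows of Ccl8, which rose most by Day+3, of its neighbour Ccl12, whose rise was mostly complete at Day+3, and of Ccl9, which rose least by Day+7, are given here 5′ to 3′ on the strand of each gene. Ccl8 is at chr11:82114935-82115184 (plus strand), Ccl12 at chr11:82101595-82101844 (plus strand) and Ccl9 at chr11:83578637-83578886 (minus strand). Capitals mark matches to the motifs named after them.
Ccl8: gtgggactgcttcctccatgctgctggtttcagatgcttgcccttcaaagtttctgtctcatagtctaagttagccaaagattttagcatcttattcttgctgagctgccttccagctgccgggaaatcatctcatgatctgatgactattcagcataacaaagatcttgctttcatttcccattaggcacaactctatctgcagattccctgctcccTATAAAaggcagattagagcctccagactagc
Ccl12: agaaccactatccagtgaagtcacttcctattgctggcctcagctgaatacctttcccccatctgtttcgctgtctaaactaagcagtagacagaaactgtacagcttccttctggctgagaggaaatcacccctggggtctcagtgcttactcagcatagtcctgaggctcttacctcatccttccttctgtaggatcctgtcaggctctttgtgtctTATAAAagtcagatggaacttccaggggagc
Ccl9: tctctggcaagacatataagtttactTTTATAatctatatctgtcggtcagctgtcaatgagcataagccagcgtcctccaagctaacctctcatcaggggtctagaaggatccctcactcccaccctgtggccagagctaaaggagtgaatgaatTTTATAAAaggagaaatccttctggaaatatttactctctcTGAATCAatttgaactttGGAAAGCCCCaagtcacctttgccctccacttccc

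Motifs were searched on both strands: the TATA box (TATAAA), NF-kB (GGG and TTTCC with any 2 bases between them), the interferon-stimulated element ISRE (TTTC and TTTC with any 2 bases between them), AP-1 (TGANTCA) and the interferon gamma element GAS (TTCNNNGAA). In the window of Ccl8 the only match was a TATA box whose first base lies at -32 from the start, and in that of Ccl12 a TATA box at -31. The window of Ccl9 held an NF-kB match at -35, an AP-1 match at -53 and 3 TATA matches, of which a pair overlaps on opposite strands. The windows of Ccl3 and Ccl6 held none of these motifs. Among 32851 windows of the same length, 12.4% held the TATA motif, 1.41% NF-kB, 6.75% AP-1, 2.98% ISRE and 7.02% GAS. These matches describe the letters of the windows.

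Over the genes covered, the column totals ran from 10.2e6 to 14.2e6 counts in Day-1 tumors, from 15.4e6 to 18.7e6 in Day+3 tumors and from 16.05e6 to 19.4e6 in Day+7 tumors. Gene symbols later in the alphabet than Pax7 were not used here. The mesothelial marker Msln averaged 385 CPM (counts as a rate of the library's total, which was scaled by the TMM method) at Day-1, 353 at Day+3 and 65.9 at Day+7, whereas Krt19, Lrrn4 and Gpm6a stayed below 1 CPM on average on each day. Krt7 was the remaining marker of the list. Of the 5 markers, 2 had enough counts to be tested between days. Their median log2 fold change against Day-1, which for 2 genes is their average, was 0.82 at Day+3 and -1.66 at Day+7. The summed level of the 5 markers averaged 389 CPM at Day-1, 363 at Day+3 and 68.4 at Day+7. The median at Day+3 therefore does not stand for a rise of the summed list. The skin keratin Krt5 was above 10 CPM in 16 tumors, of which 10 were taken at Day-1, 1 at Day+3 and 5 at Day+7. No transcript of a chemokine described here shared a run of 31 bases with that of another (0 of 45 pairs), the word length kallisto uses by default, so their counts did not depend on splitting reads between them. In bulk tumor RNA, fewer cells of a type and less RNA per cell cannot be told apart.

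The first question was how the chemokines changed after CY. Every member was higher at Day+3 than at Day-1 and higher again at Day+7. In a model of 6 groups (edgeR's quasi-likelihood test, 13194 genes, CR and PR weighted equally, false discovery rate under 0.1), 10 of 10 passed at Day+3 against Day-1, 10 of 10 at Day+7 against Day-1 and 10 of 10 at Day+7 against Day+3, all upward. Most genes changed between days, and those called higher were 37.9%, 43% and 38.8% of all genes tested, so the sizes carry more information than the calls. The median log2 fold change of the members was 1.01 at Day+3, against -0.02 over all genes, and 3.37 at Day+7, against -0.01. At Day+7 against Day-1 the members ranked from 125 (Ccl5) and 135 (Ccl8) to 967 (Ccl12) and 1294 (Ccl9) among the 13194 genes ordered from the largest increase. All 10 Day+7 tumors lay above all 26 Day-1 tumors for each of the 10 members, which was so for 19.8% of all genes. At Day+3 this was so for Ccl7 and Ccl8 only among the members, against 12.2% of all genes.

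**Figure D1:**
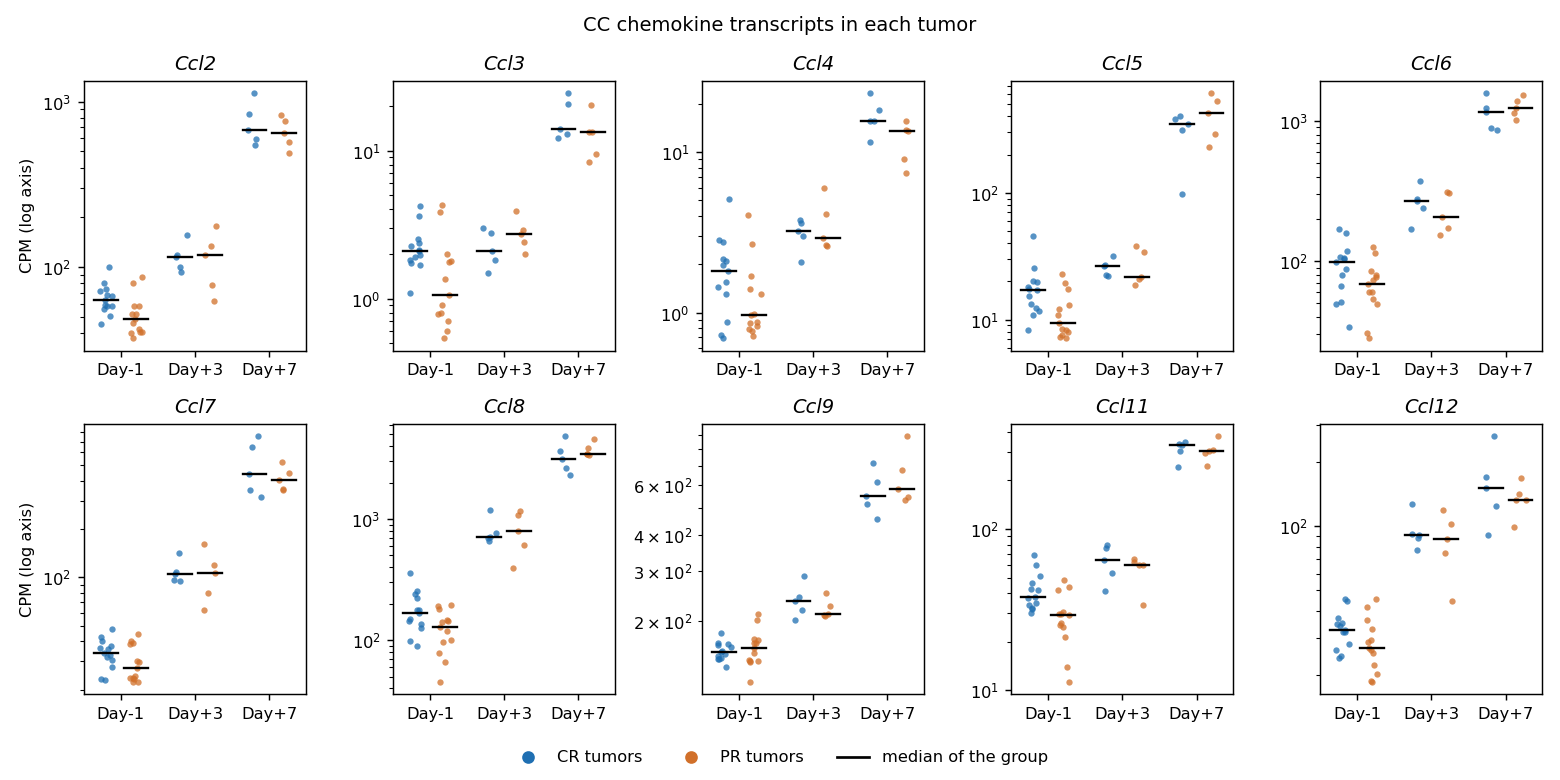
Level (CPM, log axis) of each chemokine in each of the 46 tumors, by day and response, with the median of each group as a bar. All 10 Day+7 tumors lie above all 26 Day-1 tumors in every panel, and CR and PR points overlap on each day.

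Among the ligands of Ccr2, Ccl2, the main attractant of monocytes, measured 37.1, 58.3 and 100.04 CPM (lowest, median and highest of 26 tumors) at Day-1. At Day+3 the CR tumors had 93.7, 100.3, 115, 118 and 156 CPM and the PR tumors 62.1, 78.4, 118, 134 and 176 CPM. At Day+7 the CR tumors had 544, 597, 670.4, 838 and 1123 CPM and the PR tumors 492, 573, 649.7, 764 and 826 CPM. The Day+3 values reached into the range of Day-1, and the Day+7 values stood clear of both. Ccl2 was 1.96-fold higher at Day+3 (log2 0.97, SE 0.131, adjusted p = 8.73e-09 from edgeR) and 12.03-fold higher at Day+7 (log2 3.59, SE 0.126, adjusted p = 2.05e-28) than at Day-1.

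Ccl7, the neighbour of Ccl2 and a ligand of Ccr2 as well, measured 22.5 to 47.7 CPM at Day-1, 62.5 to 163 CPM at Day+3 and 316 to 753 CPM at Day+7, with no overlap between days. It was 3.36-fold higher at Day+3 and 14.2-fold higher at Day+7 than before CY. Ccl12 followed another course. It measured 18.6, 30.5 and 45.5 CPM (lowest, median, highest) at Day-1. Its Day+3 values were 77.9, 87.8, 91.0, 92.5 and 128 CPM in CR and 44.6, 75.1, 87.4, 103 and 120 CPM in PR. Its Day+7 values were 90.9, 125, 151, 170.3 and 265 CPM in CR and 98.9, 133, 133, 143 and 169 CPM in PR. Day+3 and Day+7 therefore overlapped for Ccl12, the only member for which they did (in 19.2% of all genes every Day+7 tumor lay above every Day+3 tumor). By Day+3 Ccl12 had reached 68.9% of its log2 rise to Day+7, the largest share among the 10 members, against 27.1% for Ccl2 and 45.7% for Ccl7.

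Of the attractants of T cells and macrophages, Ccl5 (RANTES), which is made by T cells, natural killer cells and macrophages, had the largest change of the 10 members. It measured 7.09, 12.7 and 45.4 CPM (lowest, median, highest) at Day-1. At Day+3 it measured 22.2, 22.5, 26.4, 26.7 and 31.9 CPM in CR and 18.8, 20.8, 21.8, 34.4 and 37.9 CPM in PR, all within the range of Day-1. At Day+7 it measured 97.5, 313, 351, 385 and 405 CPM in CR and 231, 289, 429, 533 and 609.6 CPM in PR, all above every earlier tumor. The CR tumor CT7_6 with 97.5 CPM stood apart from the 9 others. Ccl5 was 1.82-fold higher at Day+3 (log2 0.86, SE 0.203, adjusted p = 0.000218) and 24.8-fold higher at Day+7 (log2 4.63, SE 0.189, adjusted p = 5.43e-26), and 13.7-fold higher at Day+7 than at Day+3. No other member rose more than 6.13-fold over that later step.

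Ccl3 and Ccl4 (MIP-1 alpha and beta), made by activated macrophages and T cells, were the least abundant members, with as few as 7 and 8 counts in a Day-1 tumor. Ccl3 measured 0.538 to 4.28 CPM at Day-1, 1.496 to 3.92 CPM at Day+3 and 8.34 to 24.4 CPM at Day+7. Its Day+3 tumors lay within the Day-1 range. At Day+3 its increase was 1.33-fold (log2 0.41, SE 0.226, adjusted p = 0.0964 from edgeR), a 95% interval that spans 0 (-0.04 to 0.87), and a call that was lost when any of 25 of the 46 tumors was left out, with log2 values from 0.34 to 0.42 in those fits. At Day+7 Ccl3 was 7.83-fold higher than at Day-1. Ccl4 measured 0.690 to 5.08 CPM at Day-1, 2.06 to 5.95 CPM at Day+3 and 7.38 to 23.3 CPM at Day+7, which was 2.06-fold and then 8.61-fold above Day-1.

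Ccl6 and Ccl9, rodent ligands of Ccr1 made by myeloid cells, lie side by side in the second cluster and differed in their courses. Ccl6 measured 28.0 to 169 CPM at Day-1, 154 to 373 CPM at Day+3 and 864 to 1579 CPM at Day+7, and was 3.05-fold higher at Day+3 and 14.9-fold higher at Day+7 (log2 3.90, SE 0.179, adjusted p = 4.52e-24). Ccl9 varied least between tumors at Day-1, with 123 to 212 CPM and a coefficient of variation of 11.8%, where the other members had 24.0% to 65.6%. It measured 202 to 289 CPM at Day+3 and 457 to 887 CPM at Day+7. It was 1.44-fold higher at Day+3, where Ccl3 alone had a smaller estimate, and 3.79-fold higher at Day+7 (log2 1.92, SE 0.0659, adjusted p = 8.14e-29), the smallest factor of the members.

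Ccl8, a chemokine of macrophages, was 5.36-fold higher at Day+3 (log2 2.42, SE 0.173, adjusted p = 9.10e-17) and 23.3-fold higher at Day+7 (log2 4.54, SE 0.177, adjusted p = 8.16e-27), and it ranked 118 among all genes by its increase at Day+3, before every other member. It measured 45.5, 144 and 359 CPM (lowest, median, highest) at Day-1. At Day+3 it measured 664, 703, 710.4, 769 and 1197 CPM in CR and 392, 609, 801, 1075 and 1154 CPM in PR. At Day+7 it measured 2329, 2658, 3147, 3654 and 4798 CPM in CR and 3362, 3429, 3439, 3857 and 4576 CPM in PR. The 3 days did not overlap. Ccl11, the eosinophil attractant, measured 11.3 to 69.1 CPM at Day-1, 33.8 to 79.3 CPM at Day+3 and 244 to 375 CPM at Day+7, and was 1.70-fold and then 8.86-fold higher than at Day-1 (log2 3.15 at Day+7, SE 0.135, adjusted p = 2.98e-25).

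**Figure D2:**
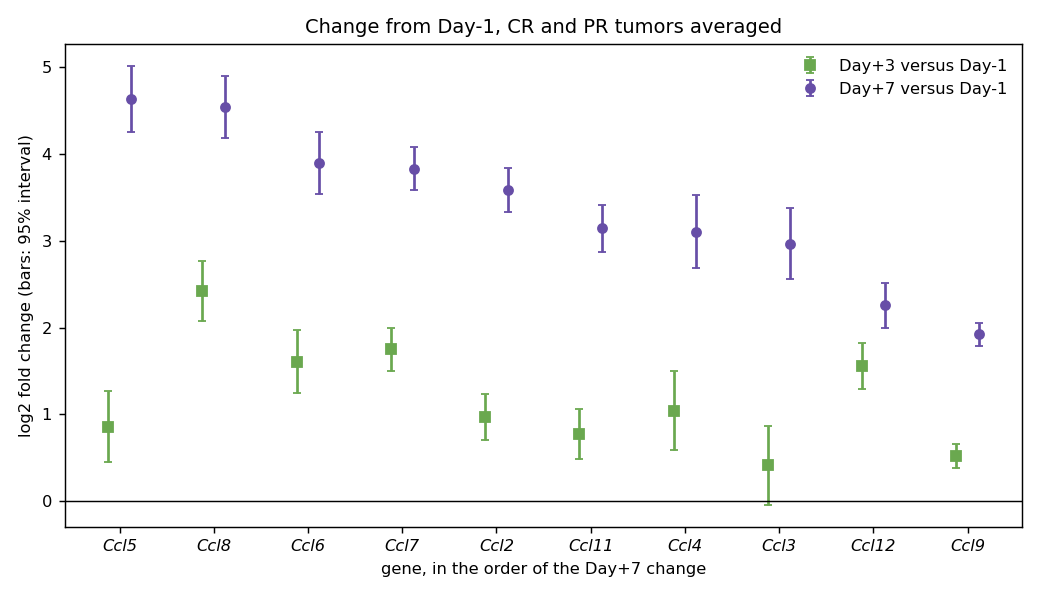
Log2 fold change of each chemokine at Day+3 (squares) and Day+7 (circles) against Day-1, from the 6-group edgeR model over 46 tumors, with 95% intervals as bars. Ccl5 and Ccl8 change most at Day+7, Ccl8 changes most at Day+3, and the Day+3 interval of Ccl3 spans 0.

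Levels were compared between genes per kilobase of the annotated transcript. Ccl8 was the most abundant member on every day, with 299.9 ± 131 CPM per kb (SD, n = 26) at Day-1, 1580.2 ± 505 (n = 10) at Day+3 and 6898 ± 1490.3 (n = 10) at Day+7. It was above the member with the next highest mean (Ccl2 at Day-1 and Day+7, Ccl6 at Day+3) in all 46 tumors, by 1.95-fold or more. Its share of the summed level of the 10 members was 44.9% at Day-1, 65.5% at Day+3 and 64.2% at Day+7. The order below it changed. Ccl5 stood 8th at Day-1 (28.0 ± 15.3 CPM per kb) and at Day+3 (49.5 ± 12.1), and 4th at Day+7 (685 ± 275), whereas Ccl12 went from 3rd at Day-1 (57.6 ± 14.6) to 7th at Day+7 (275 ± 90.4). Several neighbours in this order did not differ beyond their spread: at Day+7 Ccl2 exceeded Ccl6 in 4 of 10 tumors, Ccl5 exceeded Ccl7 in 6 of 10 and Ccl11 exceeded Ccl12 in 7 of 10. Ccl4 and Ccl3 were the lowest on every day, at 21.8 ± 6.85 and 19.4 ± 6.73 CPM per kb at Day+7. Together the 10 members made up 0.0571% of the TMM-scaled library total at Day-1, 0.169% at Day+3 and 0.736% at Day+7 (means over tumors). These are not shares of the raw counts, since the scaling differed between days.

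**Figure D3:**
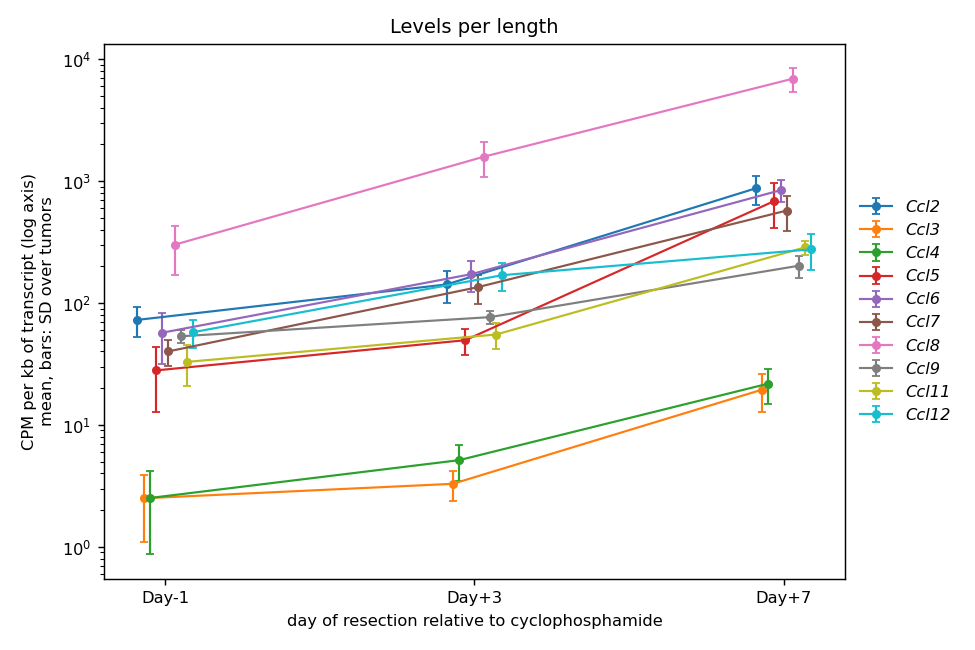
Mean level of each chemokine per kilobase of transcript (CPM per kb, log axis) at Day-1 (26 tumors), Day+3 (10) and Day+7 (10), with bars for the SD over tumors. Ccl8 lies above all others on each day, Ccl3 and Ccl4 below, and the line of Ccl5 crosses those of Ccl7, Ccl9, Ccl11 and Ccl12 between Day+3 and Day+7.

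The second question was whether the chemokines differed between CR and PR. Before CY, 9 of 10 members had higher estimates in CR, with Ccl9 the exception, but none passed the test over 10777 genes (0 of 10, where 0.00928% of all genes were called). At an unadjusted p under 0.05 there were 4 of 10 (Ccl2, Ccl5, Ccl8 and Ccl11), against 17.5% of all genes. The median log2 fold change of the members was 0.46, against -0.01 over all genes. DESeq2 called 1 member (Ccl11, 3.19% of all genes called) and limma-voom with quality weights 4 (Ccl2, Ccl3, Ccl5 and Ccl11, 11% of all genes called).

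Ccl5 had the largest estimate at Day-1. It measured 8.26, 17.2 and 45.4 CPM in CR and 7.09, 9.44 and 22.7 CPM in PR (lowest, median and highest of 13), a log2 fold change of 0.64 (SE 0.231, adjusted p = 0.178 from edgeR). Ccl11 measured 29.9, 37.7 and 69.1 CPM in CR and 11.3, 29.3 and 48.6 CPM in PR (0.54, SE 0.179, adjusted p = 0.157). Ccl8 measured 89.7, 169 and 359 CPM in CR and 45.5, 129 and 195 CPM in PR (0.52, SE 0.214, adjusted p = 0.215). In each of these the CR median was the higher, and the groups overlapped. Ccl2 measured 45.1, 63.2 and 100.04 CPM in CR and 37.1, 48.9 and 87.8 CPM in PR, with 12 of 13 CR tumors above the PR median and 2 of 13 PR tumors above the CR median (0.32, SE 0.129, adjusted p = 0.212). Estimates for Ccl3, Ccl4 and Ccl6 were 0.53, 0.49 and 0.44 with intervals that spanned 0, those of Ccl12 and Ccl7 were 0.21 and 0.19, and Ccl9 had -0.05 (95% interval -0.18 to 0.08).

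The calls at Day-1 turned on single tumors. Without the CR tumor CT8, the lowest CR tumor for 5 of the 10 members, the share of all genes called was 4.13%. The PR tumor CT12 had the highest PR value of 8 of the 10 members, and without it 4 members passed (Ccl2, Ccl3, Ccl5 and Ccl11), as did 8.07% of all genes. Without CT16 Ccl11 passed (4.07% of all genes), and without CT25 Ccl2 did (3.56% of all genes). All 10 tumors with over 10 CPM of Krt5 at Day-1 have title numbers above 14. Among the 6 tumors of each response with higher numbers the mean log2 CPM was higher in CR for 10 of 10 members (by 0.05 to 0.71), and among the 7 tumors of each response with numbers of 14 or less for 9 of 10 (-0.11 to 0.97). In the marker lists of other cells 0 genes were called before CY. The median log2 fold change, CR over PR, was 0.58 for 12 T cell genes, 0.68 for 4 natural killer genes, 0.43 for 5 dendritic cell genes, 0.22 for 12 macrophage genes, 0.21 for 6 monocyte genes, 0.17 for 6 mast cell genes, 0.14 for 6 fibroblast genes and 0.59 for 5 skeletal muscle genes. It was 0.63, 0.72, 0.24 and 0.62 for the neutrophil, skin, B cell and eosinophil lists, of which 1 to 3 genes each were tested. For endothelium (-0.09), mesothelium (-0.08, 2 of 5 genes tested) and red blood cells (-0.03) it was below 0. The part of these cells in the chemokine values was not tested.

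After CY the estimates were higher in CR for 7 of 10 members at Day+3 (median log2 fold change 0.04) and for 6 of 10 at Day+7 (median 0.12). At Day+3 none of the members passed (0 of 10, with 0% of all genes called, and 0 at an unadjusted p under 0.05 against 2.16% of all genes), and none was called by DESeq2 (0.0253% of all genes called) or limma-voom (0%). Log2 fold changes, CR over PR, ran from -0.32 (Ccl3) to 0.20 (Ccl6), and the intervals were wide, as for Ccl8 with 0.00 (-0.58 to 0.58) and Ccl2 with 0.04 (-0.50 to 0.57). At Day+7 none passed (0 of 10, with 0% of all genes called), again with none by DESeq2 (0.0426% of all genes called) or limma-voom (0.00853%). Only Ccl4 had an unadjusted p under 0.05 (2.84% of all genes), with 11.6, 15.5, 15.7, 18.2 and 23.3 CPM in CR and 7.38, 9.11, 13.5, 13.7 and 15.7 CPM in PR, which overlap (log2 0.51, SE 0.224, adjusted p = 0.967 from edgeR). Ccl5 had -0.43 (95% interval -1.22 to 0.35) at Day+7, and -0.20 without the low CR tumor CT7_6. CR and PR overlapped for all 10 members on each day, as they did for most genes (0%, 0.355% and 0.478% of all genes did not overlap at Day-1, Day+3 and Day+7).

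**Figure D4:**
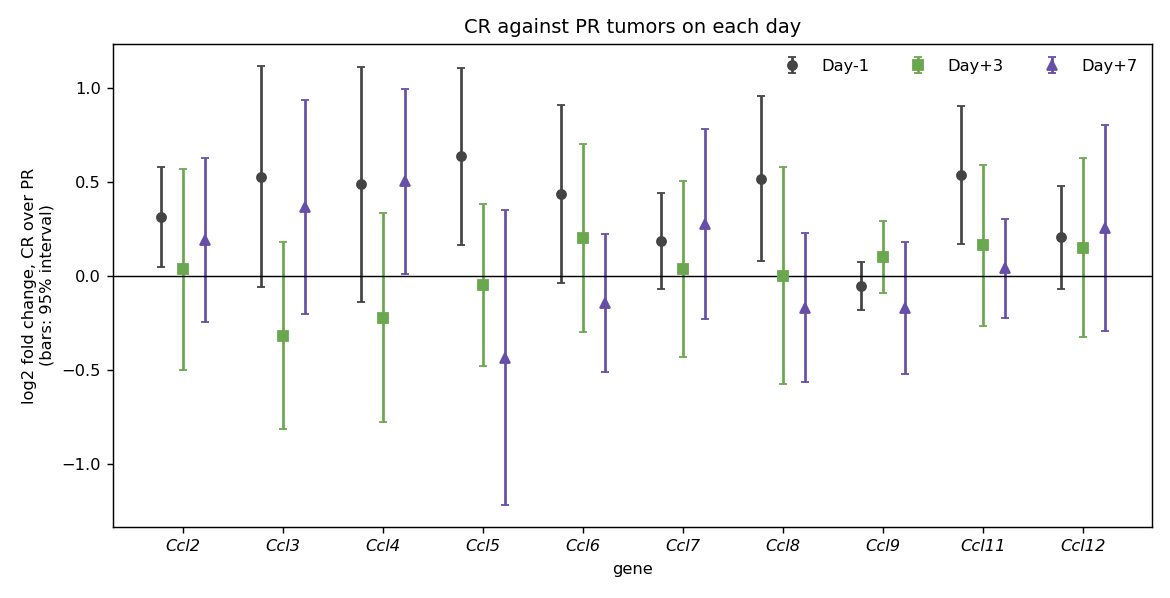
Log2 fold change of CR over PR for each chemokine at Day-1 (13 against 13 tumors), Day+3 and Day+7 (5 against 5 each), with 95% intervals from edgeR. At Day-1 9 of 10 points lie above 0 with none passing the false discovery rate. At the later days the points scatter around 0. Their intervals are wider than at Day-1 for some genes, such as Ccl2, and narrower for others, such as Ccl4.

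Whether the difference between CR and PR changed with time was tested directly in the 6-group model. None of the members passed for Day+3 against Day-1 (0 of 10, with 0% of all genes called, and 0 at an unadjusted p under 0.05 against 3.49%) or for Day+7 against Day-1 (0 of 10, with 0.00758% of all genes called, and 1 at an unadjusted p under 0.05 against 11.5%). That member was Ccl5, whose difference at Day+7 was lower than at Day-1 by a log2 change of -1.07 (SE 0.402, adjusted p = 0.336 from edgeR). DESeq2 called 0 of 10 in both comparisons (0.0227% and 0.129% of all genes called), as did limma-voom (0% of all genes in both).

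The third question was how the members varied together between tumors of the same group. With group means removed, the log2 CPM of 23 of 45 pairs correlated across the 26 Day-1 tumors (Pearson's r, two-sided permutation test within groups with 100000 resamples, adjusted p under 0.05 over 45 pairs), all positively, and 17 of these passed by Spearman's rho as well. After leaving out the 2 tumors farthest from the median of the first gene, all 23 kept a positive r. Ccl2 went with Ccl4 (r = 0.82, rho = 0.74, adjusted permutation p = 9e-05, r = 0.80 without 2 tumors) and with its neighbour Ccl7 (r = 0.81, rho = 0.81, adjusted permutation p = 9e-05, r = 0.79 without 2 tumors). Ccl8 went with Ccl6 (r = 0.82, rho = 0.78, r = 0.75 without 2 tumors) and Ccl12 (r = 0.82, rho = 0.79, r = 0.77 without 2 tumors), and Ccl6 with Ccl11 (r = 0.79, rho = 0.64, r = 0.68 without 2 tumors), each with an adjusted permutation p = 9e-05, whose raw value of 1e-05 is the smallest the resamples can give. Ccl2 and Ccl8 themselves had r = 0.33 (rho = 0.21, adjusted permutation p = 0.149). Ccl3 went with Ccl5 (r = 0.77, rho = 0.70, adjusted permutation p = 0.00015, r = 0.80 without 2 tumors). Ccl9 passed with no other member, and its r with Ccl8 was -0.43 (rho = -0.42, adjusted permutation p = 0.0634). Values of a tumor share its library, its depth and its cells, and the part of these was not tested.

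Across the 20 later tumors 8 of 45 pairs passed, of which 6 had passed at Day-1. Ccl2 and Ccl7 had r = 0.95 (rho = 0.95, adjusted permutation p = 0.00045, r = 0.92 without 2 tumors) and Ccl7 and Ccl12 r = 0.80 (rho = 0.82, adjusted permutation p = 0.0115, r = 0.85 without 2 tumors). Ccl9 went with Ccl6 (r = 0.66, rho = 0.65, adjusted permutation p = 0.0115, r = 0.66 without 2 tumors) and Ccl8 (r = 0.50, rho = 0.45, r = 0.46 without 2 tumors) in these tumors, the latter with an adjusted permutation p = 0.0413 for r and 0.134 for rho. The later tumors pool Day+3 and Day+7, and taken by day (10 tumors each) some pairs differed in sign. Ccl2 and Ccl8 had r = 0.89 at Day+3 and -0.37 at Day+7, and Ccl5 and Ccl12 0.66 and -0.65. Others kept theirs, as Ccl2 and Ccl7 with 0.99 and 0.92. A test of the change between the days was not made. The tumors that held the extremes were counted, with no test. At Day+3 the CR tumor CT3_8 was the highest CR tumor for 9 of 10 members and the PR tumor CT3_9 the highest PR tumor for 8 of 10, while the PR tumor CT3_6 was the lowest PR tumor for 6 of 10. At Day+7 no tumor was the highest of its group for more than 5 members, and the PR tumors CT7_1 and CT7_7 were the highest for 3 and 4 members and the lowest for 4 and 3.

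**Figure D5:**
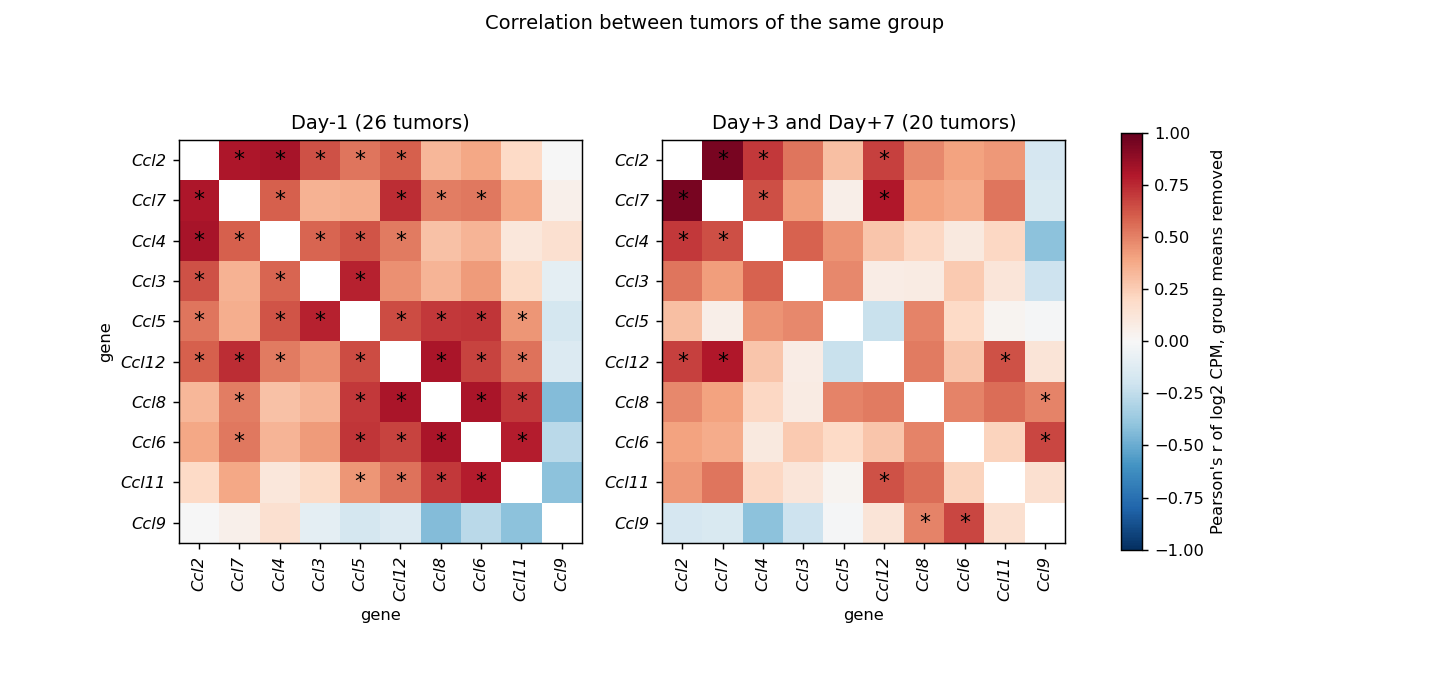
Pearson's r between chemokines across the 26 Day-1 tumors (left) and the 20 later tumors (right), on log2 CPM with the mean of each response and day group removed. Asterisks mark pairs with an adjusted permutation p under 0.05 (23 of 45 and 8 of 45), and at Day-1 Ccl9 has none.

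Among 13173 other genes, those whose Day-1 pattern was most like that of Ccl8 were Fcgr2b, an inhibitory Fc receptor of macrophages and B cells (r = 0.96 across 26 tumors, and 0.90 across the 20 later tumors, which did not enter the choice), Nrros (0.94 and 0.61) and Hfe (0.93 and 0.82). For Ccl2 they were Cxcl10, an interferon-induced chemokine (0.90 and 0.87), Irf1, an interferon-induced transcription factor (0.89 and 0.89), and Erap1, which trims peptides for MHC class I (0.89 and 0.89). For Ccl5 they were Cd86, a costimulatory molecule of antigen-presenting cells (0.93 and 0.73), Dgka (0.93 and 0.77) and Itgal, an integrin chain of leukocytes (0.93 and 0.75). Ccl6 was most like F13a1 (0.92 and 0.56), Ccl12 like Ecscr (0.85 and 0.58), Ccl11 like Mcoln2 (0.92 and 0.64) and Ccl3 like Ifi209 (0.91 and 0.59). Ccl4 was most like Gm12185 (0.91 and 0.56), and Ccl7 and Ccl9 had weaker best matches, Lilr4b (0.74 and 0.33) and Mitf (0.74 and 0.33). These genes were picked for the highest r at Day-1, so their r at Day-1 is a description of the choice.

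The members were then set beside marker lists of the cells a tumor holds, each scored as the mean log2 CPM of its genes with group means removed, in 140 relations of 10 members with 14 lists. At Day-1 57 passed an adjusted permutation p of 0.05, and across the later tumors 1. Ccl8 went with macrophage markers (r = 0.93, rho = 0.90, r = 0.89 without 2 tumors, adjusted permutation p = 0.000127), with r = 0.70 later (adjusted permutation p = 0.056, r = 0.45 without 2 tumors). Ccl5 went with T cell markers (r = 0.90, rho = 0.91, r = 0.91 without 2 tumors, adjusted permutation p = 0.000127), and this relation was the one that passed later (r = 0.83, rho = 0.80, r = 0.84 without 2 tumors, adjusted permutation p = 0.014). At Day-1 Ccl5 also went with natural killer (r = 0.86), monocyte (r = 0.86), dendritic cell (r = 0.80) and macrophage markers (r = 0.75), each with the same adjusted permutation p = 0.000127, and Ccl8 with monocyte (r = 0.82, adjusted permutation p = 0.000127) and dendritic cell markers (r = 0.79, adjusted permutation p = 0.00035). A difference between these lists was not tested. Ccl6 went with monocyte markers at Day-1 (r = 0.90, rho = 0.84, r = 0.86 without 2 tumors, adjusted permutation p = 0.000127), a list that holds F13a1, the gene most like it. Ccl2 went with neutrophil markers at Day-1 (r = 0.71, rho = 0.62, r = 0.66 without 2 tumors, adjusted permutation p = 0.000867), as did Ccl4 (r = 0.71, rho = 0.59, r = 0.63 without 2 tumors, adjusted permutation p = 0.0007). The neutrophil score held 8 genes, of which 3 had enough counts to be tested among the Day-1 tumors. Natural killer markers also went with Ccl4 (r = 0.74, adjusted permutation p = 0.00028) and Ccl2 (r = 0.67, adjusted permutation p = 0.00172). T cell, monocyte and mast cell markers passed with both genes as well (r from 0.46 to 0.62). Skeletal muscle markers went with Ccl6 (r = 0.68, rho = 0.63, r = 0.69 without 2 tumors, adjusted permutation p = 0.0011) and Ccl5 (r = 0.68, rho = 0.75, r = 0.62 without 2 tumors, adjusted permutation p = 0.00102). All 3 negative relations that passed were of Ccl9, with markers of eosinophils (r = -0.44), dendritic cells (r = -0.51) and fibroblasts (r = -0.57), and by rho the first of these passed alone. The eosinophil score held 4 genes, of which only 1 had enough counts to be tested among the Day-1 tumors.

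Over time the markers moved too, and the part of cell numbers in the chemokine values was not tested. The summed level of 12 macrophage markers was 1800 to 4219 CPM at Day-1, 4752 to 7228 CPM at Day+3 and 8502 to 10786 CPM at Day+7. That of 12 T cell markers averaged 119 CPM at Day-1, 84.8 at Day+3 and 461 at Day+7. At Day+3, 6 of the 12 T cell markers were called lower than at Day-1 and none higher, and Ccl5 was higher. Of all genes tested, 37.9% were called higher and 39.6% lower at Day+3, and 43% and 42.8% at Day+7, each against Day-1. The summed level of 5 eosinophil markers averaged 3.47, 4.49 and 383 CPM on the 3 days, beside 35.6, 59.6 and 309 CPM for Ccl11. Of the 4 eosinophil genes tested, 3 were called higher and 0 lower at Day+7 than at Day-1. Other lists moved as well, given again as summed levels. Dendritic cell markers averaged 80.6, 75.1 and 952 CPM on the 3 days and natural killer markers 26.9, 29.5 and 144 CPM. Red blood cell markers averaged 51.1, 5.14 and 400.1 CPM, with 5 of 5 genes called lower at Day+3 and 5 of 5 higher at Day+7 than at Day-1. Neutrophil markers averaged 842, 2161 and 781 CPM and fibroblast markers 24330.1, 30338 and 15322 CPM, both sums being highest at Day+3. The neutrophil sum did not follow most of its genes. At Day+7, 7 of 8 were called higher and 1 lower than at Day-1 (median log2 fold change 5.19). Against Day+3, 7 were likewise called higher and 1 lower (median 4.11), beside 38.8% and 36.5% of all genes tested.

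Receptors did not all follow their ligands. Of 6 receptors and scavengers tested, 2 were called higher and 3 lower at Day+3, and 5 higher and 1 lower at Day+7. Among all genes tested, 37.9% were called higher and 39.6% lower at Day+3, and 43% and 42.8% at Day+7. Ccr2, the receptor of Ccl2, Ccl7 and Ccl12 on monocytes, averaged 259.6 ± 84.5 CPM at Day-1 and 123 ± 38.4 at Day+3, a fall (log2 -1.06, SE 0.158, adjusted p = 8.51e-08 from edgeR) at a time when its 3 ligands rose, and 932 ± 144 at Day+7 (log2 1.86, SE 0.138, adjusted p = 1.48e-16). Ccr1, the receptor of Ccl6 and Ccl9, averaged 75.3 ± 13.0, 108 ± 22.7 and 276 ± 70.7 CPM (SD, n = 26, 10 and 10), higher at each step. Ccr8, the receptor of mouse Ccl8, fell at Day+3 (log2 -1.55, SE 0.237, adjusted p = 1.46e-07) and stayed near 3 CPM or below on average on all days. Ccr3, the receptor of Ccl11, fell at Day+7 (7.05 ± 1.61 to 3.89 ± 1.46 CPM, log2 -0.86, SE 0.158, adjusted p = 3.97e-06) while Ccl11 rose. Among the scavenging receptors, which bind chemokines without signalling, Ackr1 and Ackr2 averaged 7.02 and 3.59 CPM at Day+7, against 1.99 and 0.773 CPM at Day-1.

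Against Day-1, 37.9% of all genes tested were called higher and 39.6% lower at Day+3, and 43% and 42.8% at Day+7. Of the other CC chemokines, 8 of 10 were tested, and 5 were called higher and 1 lower at Day+3, and 6 higher and 2 lower at Day+7. The largest change was that of Ccl17, a ligand of Ccr4, from 2.39 ± 0.912 CPM at Day-1 to 18.9 ± 4.57 at Day+3 and 687 ± 181 at Day+7 (log2 8.16, SE 0.137, adjusted p = 3.65e-39), more than any of the inflammatory members. Ccl24, a second eotaxin, went from 1.92 ± 0.685 to 4.73 ± 0.827 and 179 ± 71.9 CPM, and Ccl22, a further ligand of Ccr4, from 26.3 ± 7.87 to 59.6 ± 12.3 and 310.7 ± 82.9 CPM. Ccl19, which guides T cells and dendritic cells to lymph nodes, rose by 4.71 on the log2 scale at Day+7. A further list held cytokines that induce chemokines and the NF-kB genes Nfkb1, Nfkb2, Nfkbia and Nfkbiz. Of its 13 genes that were tested, 8 were called higher and 2 lower at Day+3, and 12 higher and none lower at Day+7. Csf2, a growth factor of myeloid cells, rose by 2.25 on the log2 scale at Day+3 and 5.80 at Day+7, and Osm, a cytokine of the interleukin 6 family, by 0.86 and 3.30. Lta and Il13 rose by 4.27 and 6.46 at Day+7. Ifng, the interferon gamma gene, averaged 1.19 CPM at Day-1 and 0.914 at Day+3 (log2 -0.34, SE 0.367, adjusted p = 0.408) and 44.3 at Day+7 (log2 5.26, SE 0.279, adjusted p = 8.56e-22), and the NF-kB subunit Nfkb1 fell at Day+3 (log2 -0.49, SE 0.0393, adjusted p = 4.13e-15) and was higher at Day+7 (0.65, SE 0.0371, adjusted p = 1.63e-20). Between CR and PR none of the tested genes of these 3 lists passed on any day. Ccr8 had the largest estimate before CY (log2 0.74, SE 0.211, adjusted p = 0.140 from edgeR), and Ccr2 had 0.41 (SE 0.158, adjusted p = 0.192). Ccr3, Ackr1 and Ifng were named after their values were seen.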

How the data were processed

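RNA was extracted by the authors with Trizol and RNeasy MinElute columns, and reads were pseudoaligned with kallisto (version not given in the sources used here) against mouse build GRCm38.p6, according to the processing notes of the submitters. The deposited values are counts per gene symbol, not normalized, and how transcripts were summed to genes is not given in the sources used here. The sample labels and the methods give different read lengths. The table has 46012 entries, of which the last is incomplete and was left out, and 46011 were used, with 30493 above 0. Of 21924 protein-coding names of GENCODE M21, 14070 (64.2%) were covered. The counts give a partial library total, which was used as the depth.

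The 10 members, the marker and pathway lists and the tests were chosen with earlier results of these data known. Groups came from the sample labels. In R 4.3.3, genes were filtered with filterByExpr, normalized with TMM and tested by quasi-likelihood in edgeR 4.0.16 (glmQLFTest, glmQLFit in its older form), with Benjamini-Hochberg adjustment over all genes and a false discovery rate under 0.1. The responses were compared day by day in separate fits, and days and the change of the CR to PR difference in 1 model of 6 groups over 46 tumors. The standard error is the log2 fold change over the square root of F. The test was checked on simulated counts. Named genes are all members, up to 4 genes with the smallest p of each other list, and the 3 genes most like each member. Marker relations, the count of tumors that held the extremes of a group and the nearest genes' background roles were added after values were seen. Log2 CPM has a prior count of 2. Alternatives were DESeq2 1.42.0, limma-voom (limma 3.58.1) with quality weights, DESeq2's size factors, no filter, a threshold of 0.05, all 46 tumors in 1 model, only the tumors of the 2 days compared, leaving out tumors above 10 CPM of Krt5, a covariate for title numbers above 14, and each tumor left out in turn. One planned item is not reported here. P-values measure the spread between tumors of different mice.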

Additional observations from a re-analysis of the deposited data

Results flagged for a closer look

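A pair of values stood far from the other 4 of their group, out of 40 sets of 5 tumors examined, and chance gives such a flag in about 1 of 20 sets. Both were at Day+3. Ccl8 measured 1197 CPM in the CR tumor CT3_8, and the other CR tumors had 664 to 769 CPM. Ccl11 measured 33.8 CPM in the PR tumor CT3_6, and the other PR tumors had 60.1 to 64.8 CPM. Leaving out CT3_8 moved the log2 fold change of Ccl8 between CR and PR at Day+3 from 0.00 to -0.18, and leaving out CT3_6 moved that of Ccl11 from 0.17 to 0.03, with none past the threshold before or after.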

How the results depend on the processing

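The increases over the days kept their direction under every alternative run, and the number of members called stayed at 10 of 10 for Day+7 against Day-1 and against Day+3. For Day+3 against Day-1 it was 9 at a threshold of 0.05, and 9 or 10 with each tumor left out, Ccl3 being the member lost. Between CR and PR at Day-1 the count of 0 became 1 with DESeq2 and 4 with limma-voom, and it ran from 0 to 4 with each tumor left out. Without the tumors above 10 CPM of Krt5, 19 of 45 pairs of members correlated at Day-1 (16 tumors), and 22 with DESeq2's size factors.

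Directions turned only among differences that passed no threshold, and the cause was not tested. For CR over PR at Day+3, limma-voom gave 0.0061 and the fit without the tumors high in Krt5 0.0725 for Ccl5. At Day+7 that fit, with 5 tumors left, gave -0.0027 for Ccl2, 0.14 for Ccl6, 0.0403 for Ccl8, 0.15 for Ccl9 and -0.14 for Ccl12. For the change of the difference at Day+7, limma-voom gave -0.0806 for Ccl7 and -0.17 for Ccl12, and the fit without the tumors high in Krt5 gave -0.07228 for Ccl7, 0.23 for Ccl9 and -0.35 for Ccl12. With each tumor left out, CR over PR at Day+3 ran from -0.12 to 0.25 for Ccl2, -0.32 to 0.0305 for Ccl4, -0.15 to 0.12 for Ccl5, -0.10 to 0.25 for Ccl7, -0.18 to 0.17 for Ccl8 and -0.0142 to 0.30 for Ccl12, and at Day+7 from -0.0297 to 0.13 for Ccl11 and -0.0124 to 0.41 for Ccl12. The change of the difference ran at Day+3 from -0.29 to 0.0516 for Ccl7 and -0.22 to 0.0883 for Ccl12, and at Day+7 from -0.39 to 0.0617 for Ccl3, -0.24 to 0.21 for Ccl4, -0.10 to 0.22 for Ccl7, -0.21 to 0.0212 for Ccl9 and -0.22 to 0.20 for Ccl12.

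No paired analysis was possible because no mouse gave more than 1 tumor and the numbers in the titles do not pair tumors across groups. Groups of 5 leave wide intervals at the later days, Ccl3 and Ccl4 rest on few counts before CY, depth rises with time, and sequencing runs are not given in the sources used here.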
